A study of Mus musculus with 7 samples.

Results

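To examine how far the earliest B-cell stage of Erg-deficient mice carrying a rearranged heavy chain differed from that of control mice, the chromatin accessibility peaks of Rescue pre-proB cells were compared with those of WT pre-proB cells. The members of the comparison were all 95662 peaks of the WT list and all 105649 peaks of the Rescue list, 201311 of the 647973 peaks called in the 7 ATAC-seq libraries of the study. A peak was counted as unshared when no peak of the other list overlapped it by at least 1 bp, and the terms WT-only and Rescue-only are used for these. Each peak was assigned to the gene with the nearest transcription start site (TSS) in the mouse assembly GRCm38. Coding genes and the segments of immunoglobulin and T-cell receptor genes were used.

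WT mice carried Ergfl/fl, the floxed Erg allele, without Cre. Rescue mice were Rag1CreT/+;Ergdelta/delta;IgHVH10tar, in which Cre driven by the Rag1 locus deletes Erg from the common lymphoid progenitor onwards and VH10tar is a knock-in of a rearranged heavy chain. Erg KO mice, used below for a further pre-proB library, were Rag1CreT/+;Ergdelta/delta and had no knock-in. The study sorted bone marrow pre-proB cells by surface markers that included B220+, CD43+, CD24-, IgM-, IgD-, NK1.1- and CD11c-, and the other 4 libraries were of proB and preB cells of WT and Rescue mice. Each group was 1 library, and how many mice gave it was not stated, so no test between genotypes was possible and no spread between mice could be estimated. Among the 7 libraries none carried the knock-in or Rag1Cre with intact Erg, so in these data deletion and Cre cannot be told apart. Between WT and Rescue the knock-in differed as well. The Erg KO and Rescue pre-proB libraries differed in stated genotype only by the knock-in, with 1 library each. For all 3 Rescue libraries the stage in the sample title disagreed with the stage in the source name. The library titled Rescue pre-proB had proB cells as its source name, and the one with pre-proB as its source name was titled Rescue preB. The title was followed here, and values for the source-name assignment are given beside the main result. Fragmentation was by Tn5 transposase in the sample description and by sonication in the published methods.

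Early B-cell development passes from the pre-proB stage to proB cells, which rearrange the heavy chain gene, and then to preB cells, which signal through a pre-B-cell receptor built from that heavy chain, the surrogate light chains Vpreb1, Vpreb2 and Igll1, and the signalling subunits Cd79a and Cd79b. The transcription factors Ebf1 and Pax5 establish this programme, and Erg is an ETS-family transcription factor active in stem cells and lymphoid progenitors. In ATAC-seq, a peak marks DNA that was accessible to the enzyme in at least part of the cells. A site open in fewer cells and a site less open in each cell cannot be told apart.

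The sequences of 6 unshared peaks that recur in the results are given first, each as the 200 bases around the summit on the plus strand of GRCm38. The first 3 were WT-only peaks that contained the palindrome bound by Ebf1, TCCC and GGGA spaced by 2 bases, in capitals. They were the highest such peaks whose window held no annotated exon, and were chosen after their values were seen. They lay at chr4:15252585-15252784, 13146 bp from the TSS of Tmem64, at chr8:104185051-104185250, 14257 bp from that of Bean1, and at chr1:55739048-55739247, 333227 bp from that of Plcl1. The fourth was the WT-only promoter peak of Vpreb1 (chr16:16869265-16869464, 110 bp from the TSS) and the fifth the higher WT-only peak in intron 3 of Erg (chr16:95428318-95428517). The last was the highest Rescue-only peak, in the T-cell receptor alpha locus at chr14:53080635-53080834, 2283 bp from the TSS of the variable segment Trav14d-3-dv8. In these 3 the capitals mark E-boxes (CAGCTG or CACCTG on either strand).
Tmem64: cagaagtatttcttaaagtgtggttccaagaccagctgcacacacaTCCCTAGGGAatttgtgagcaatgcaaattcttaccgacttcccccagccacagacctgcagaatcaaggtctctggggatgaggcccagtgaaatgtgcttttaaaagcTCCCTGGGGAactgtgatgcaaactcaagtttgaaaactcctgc
Bean1: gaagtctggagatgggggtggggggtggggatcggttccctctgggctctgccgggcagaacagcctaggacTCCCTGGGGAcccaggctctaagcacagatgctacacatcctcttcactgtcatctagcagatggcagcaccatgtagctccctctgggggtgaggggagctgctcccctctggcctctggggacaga
Plcl1: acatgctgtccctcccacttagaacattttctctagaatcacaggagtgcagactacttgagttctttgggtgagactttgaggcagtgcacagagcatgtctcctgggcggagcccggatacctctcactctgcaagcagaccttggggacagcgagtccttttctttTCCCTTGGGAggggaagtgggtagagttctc
Vpreb1: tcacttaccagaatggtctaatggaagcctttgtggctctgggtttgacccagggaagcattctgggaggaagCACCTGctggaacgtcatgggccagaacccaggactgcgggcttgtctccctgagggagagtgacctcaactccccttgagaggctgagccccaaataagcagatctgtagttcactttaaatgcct
Erg: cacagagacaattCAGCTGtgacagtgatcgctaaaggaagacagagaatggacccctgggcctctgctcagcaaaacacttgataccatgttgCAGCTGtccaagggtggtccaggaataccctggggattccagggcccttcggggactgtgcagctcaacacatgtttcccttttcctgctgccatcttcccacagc
Trav14d-3-dv8: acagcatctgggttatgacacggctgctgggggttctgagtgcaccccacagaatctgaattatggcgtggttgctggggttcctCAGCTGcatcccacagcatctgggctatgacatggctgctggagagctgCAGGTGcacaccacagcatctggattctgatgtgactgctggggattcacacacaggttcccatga

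The WT and Rescue pre-proB landscapes were largely shared, and most of the differences were weak peaks. Of the WT peaks, 5621 (5.88%, 95% Wilson interval 5.73 to 6.03%) had no Rescue peak, and of the Rescue peaks, 16483 (15.6%, 15.4 to 15.8%) had no WT peak. These intervals, like all others here, cover counting error only. The Rescue list was longer, and when it was cut by q-value to the 95662 peaks of the WT list the shares were 9.01% of WT and 10.3% of Rescue peaks. When the Rescue library was taken by source name instead, 35.6% of WT and 27.3% of Rescue peaks were unshared. As a ratio of shared to combined bases, WT and Rescue pre-proB had 0.778, WT and Erg KO pre-proB 0.786, and Rescue and Erg KO pre-proB 0.808. The library titled Rescue preB, with pre-proB as its source name, had 0.517 with WT pre-proB. The library titled Rescue pre-proB had 0.474 with WT proB, the stage of its source name.

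WT-only and Rescue-only peaks were narrow and low. Their median widths were 261 and 263 bp, against 503 and 551 bp for shared WT and Rescue peaks, and their median −log10 q values were 5.93 and 5.94, against 33.2 and 43.1. The pileup, the number of fragments stacked at the summit, reached 89 in WT-only and 459 in Rescue-only peaks. Among WT peaks with a pileup of 12 to 15, 37.7% were unshared, and this fell to 0.305% at pileups of 60 to 99. None of the 12617 WT peaks at 100 to 199 and none of the 13480 at 200 or more was unshared, which allows shares of up to 0.0304% and 0.0285% (upper Wilson bounds). Among Rescue peaks the share was 73.6% at pileups of 12 to 15, 0.0561% at 60 to 99, and 2 of 16557 at 200 or more.

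**Figure D1:**
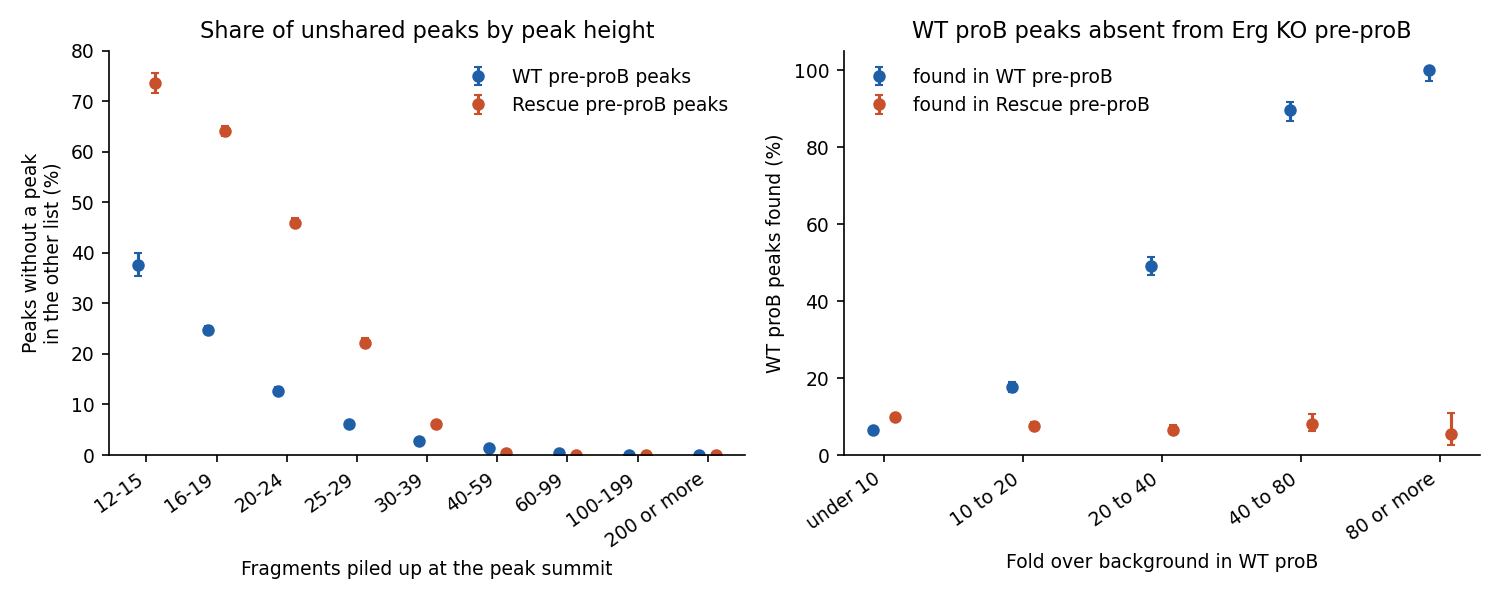
Left, share of peaks without an overlapping peak in the other pre-proB list (percent, y axis) against the peak's summit pileup (fragments, x axis) for WT and Rescue, with 95% Wilson intervals; the share fell from 37.7% (WT) and 73.6% (Rescue) at pileups of 12 to 15 to at most 0.305% from 60 up. Right, share of WT proB peaks lacking an Erg KO pre-proB peak that were found in WT or Rescue pre-proB (percent) by their fold in WT proB; the WT share rose to 100% while the Rescue share lay between 5.47 and 9.95%.

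Because most unshared peaks were near the limit of detection, a peak was called detectable when its fold enrichment over background, at the other library's background, predicted at least 2 times the lowest pileup called there, which was 12 in both libraries. By this rule, chosen with the data in view, 1436 of 76629 detectable WT peaks (1.87%) and 1789 of 77249 detectable Rescue peaks (2.32%) were unshared. The WT-only peaks of this kind had a pileup of at least 23 and the Rescue-only ones of at least 27. The 2 directions were therefore close in size once height was taken into account, and they differed in where else the peaks were found.

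Most WT-only peaks of detectable height were also found at later B-cell stages. Of the 1436 detectable WT-only peaks, 88.6% had a peak in WT proB cells, 82.3% in WT preB, 76.4% in Rescue proB and 74.2% in Rescue preB cells, but only 20.1% in Erg KO pre-proB cells. Among WT peaks shared with Rescue pre-proB the same shares were 66.0%, 59.3%, 74.5%, 65.3% and 97.0%. Thus 865 detectable WT-only peaks (60.2%) were absent from both Erg-deleted pre-proB libraries and present in all 4 proB and preB libraries, the Erg-deleted Rescue ones included. Over all 5621 WT-only peaks, 64.5% were in WT proB, 30.6% overlapped an Erg KO pre-proB peak and 905 (16.1%) were in none of the other 5 libraries. This contrast depended on the overlap and threshold used: when a reciprocal overlap of 50% was required, 23.9% were in WT proB and 34.5% in Erg KO. With both lists cut at a −log10 q of at least 10, the shares were 75.1% and 67.0% of 3411 peaks. Only 1068 WT-only peaks of the full lists reached that cut. Most of the 3411 thus overlapped a Rescue peak that fell below the cut.

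Rescue-only peaks were less often found at later stages. Of the 1789 detectable ones, 84.9% had a peak in Erg KO pre-proB cells, 24.4% in WT proB, 19.6% in WT preB, 28.3% in Rescue proB and 26.3% in Rescue preB cells. Among Rescue peaks shared with WT these shares were 97.1%, 66.2%, 59.5%, 74.6% and 65.5%. Among low shared Rescue peaks, with a pileup of at most 27, they were 84.2%, 50.1%, 39.3%, 47.3% and 44.9%. The median pileup was 22 for these low shared peaks, 29 for detectable Rescue-only peaks and 20 for all Rescue-only peaks. The detectable Rescue-only peaks were thus higher than the low shared peaks, but less often found in proB and preB cells. Their share in Erg KO cannot be read against the low shared peaks, since the heights differed. Peaks found in Erg KO pre-proB and in no other library of the remaining 5 numbered 898 (50.2%). Over all 16483 Rescue-only peaks, 53.1% overlapped a peak of Erg KO pre-proB and 25.4% one of WT proB, and 5175 (31.4%) were in none of the other 5. Both shares were below those of the low shared peaks, 84.2% and 50.1%, which were closer to them in height.

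**Figure D2:**
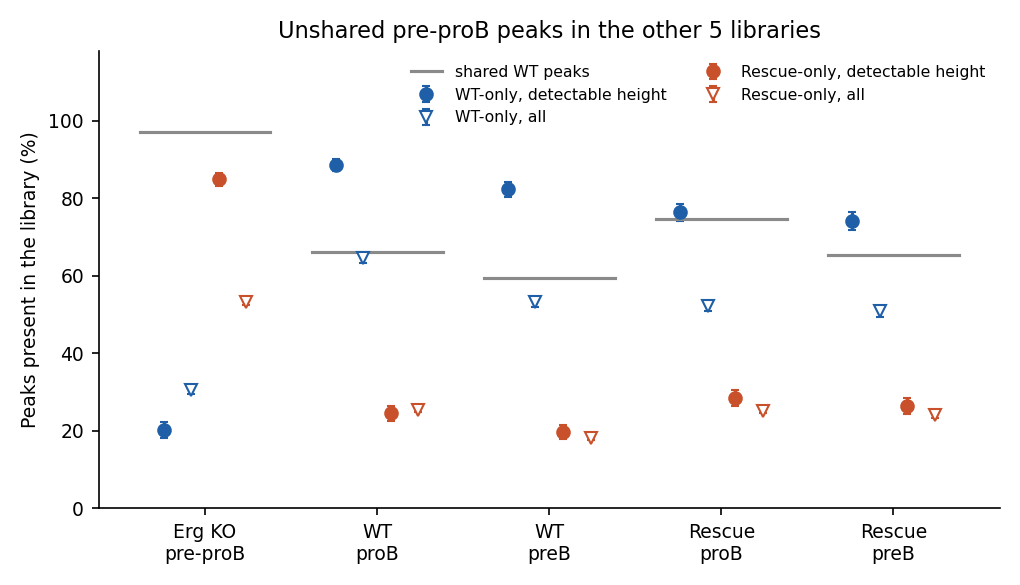
Share of peaks (percent) with an overlapping peak in each of the 5 libraries outside the comparison, for WT-only and Rescue-only peaks, all or detectable, with 95% Wilson intervals, and grey lines for shared WT peaks. Detectable WT-only peaks were present in WT proB in 88.6% and in Erg KO in 20.1%, and detectable Rescue-only peaks in 24.4% and 84.9%.

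WT proB peaks were also looked up in both pre-proB lists. Of these, 29371 had no peak in Erg KO pre-proB. Since Erg KO was the library most like Rescue pre-proB, this choice itself lowered the Rescue share, and the values are a description that adds no support to the contrast above. Among the 591 of these with a fold of 40 to 80 in WT proB, 529 (89.5%) had a peak in WT pre-proB and 48 (8.12%) in Rescue pre-proB. Among the 128 with a fold of 80 or more, all 128 had a WT pre-proB peak and 7 (5.47%) a Rescue peak. At folds under 10 the shares were 6.39% and 9.95%. WT pre-proB peaks were thus found at nearly all of the highest of these proB sites, and Rescue peaks at few of them. The WT pre-proB levels were low: over the 1273 detectable WT-only peaks with a WT proB peak, the median fold was 5.62 in WT pre-proB against 38.2 in WT proB, and the median ratio was 15.1% (interquartile range 11.4 to 25.1%). How many proB cells the WT pre-proB sample held was not measured, and their part in these differences was not tested.

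The 10 WT-only peaks with the highest −log10 q followed this pattern. The highest lay in intron 4 of Fam53b, which also overlaps intron 2 of Fgfr2, with a pileup of 89 in WT pre-proB and 16 in its Erg KO counterpart. In the later stages it reached 909 in WT proB, 967 in WT preB, 606 in Rescue proB and 969 in Rescue preB. A peak in intron 1 of Gxylt2, a xylosyltransferase acting on Notch receptors, had 85 in WT pre-proB, then 776, 161, 154 and 91 in the same order, and none in Erg KO. An intergenic peak nearest to Mbip had 83, then 882, 721, 507 and 728. A peak in an exon of Rnf41, nearest to Smarcc2, a subunit of the BAF chromatin remodelling complex, had 80, then 715, 520, 275 and 465. The peaks nearest to Bsnd (79), Ufm1 (78), Slc12a7 (77), Cnot2 (71) and Bdkrb1 (71, tied with 4 others) also had no Erg KO peak and pileups of 544 to 818 in WT proB. The peak nearest to Oxa1l, a mitochondrial membrane insertase, was the other with an Erg KO peak and had 88 in WT against 50 in Erg KO pre-proB. Its pileups were 132 and 152 in WT proB and preB, 19 in Rescue proB, and it had no peak in Rescue preB. In 9 of the 10, Oxa1l being the exception, the pileup was at least 544 in WT proB cells and none exceeded 89 in WT pre-proB cells.

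The highest Rescue-only peaks were instead clustered in a pair of regions. The peak at Trav14d-3-dv8 shown above had a pileup of 459 in Rescue and 418 in Erg KO pre-proB. The Rescue libraries of later stages had 52 (proB) and 30 (preB), and no WT library had a peak there. A second, 287 bp from the TSS of Trav13d-4, had 268, 219, 46 and 40 in the same order, and others near Trav14d-3-dv8 had 138 and 109 in Rescue pre-proB. Over the 525952 bp from chr14:52810957-53336908 there were no peaks in WT pre-proB, proB or preB cells, but 14 in each of the Rescue and Erg KO pre-proB libraries, and for Rescue proB and preB 10 and 14. The names of these segments mark them as near-identical copies, and reads may have been placed on the wrong copy. Over the whole T-cell receptor alpha and delta locus, 30 of 90 Rescue peaks (33.3%) and none of 61 WT peaks were unshared. Over all peaks these shares were 15.6% and 5.88%. At Igh, Rescue-only and WT-only peaks numbered 21 of 169 (12.4%) and 13 of 160 (8.1%). At Igk they numbered 21 of 80 (26.25%) and 7 of 67 (10.4%), and at Igl 3 of 17 (17.6%) and 0 of 14. At Tcrb there were 5 of 55 (9.09%) and 1 of 50 (2%), and at Tcrg 0 of 19 and 0 of 20. The Rescue-only shares at Igh, Tcrb and Tcrg were thus below that of all peaks.

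The other region was the distal end of the Y chromosome, where 5 of the 10 highest Rescue-only peaks lay, with pileups of 171 (nearest to Gm21860), 132, 129, 101 and 100 (Gm47283). All had peaks in every other Erg-deleted library, at pileups of 28 to 59 in Erg KO, and a pair of them also had WT proB peaks, of 25 and 19. The sequence there is repeated elsewhere in the genome. Away from both regions the highest Rescue-only peak was 25296 bp from the TSS of Rims2, a synaptic vesicle protein, with a pileup of 124 in Rescue and 60 in Erg KO pre-proB, 37 in Rescue proB, 44 in Rescue preB, and none in the WT libraries. Next were peaks nearest to Xpo1, a nuclear exportin (88), Srp54b (74), Lrrc4 (63), Akap6 (61), Cp, the plasma copper carrier ceruloplasmin (58), and Ghitm (56). These had an Erg KO peak except that in intron 1 of Srp54b, a gene with near-identical copies, which was present in the 3 Rescue libraries alone.

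Peaks that followed genotype at every stage were a small share of the differences. WT-only peaks present in all 3 WT libraries and in no Erg-deleted library numbered 221 (3.93% of 5621), 85 of them detectable. The highest were nearest to Nkd2, a Wnt pathway inhibitor (pileup 64), Rapgef2 (62), Lmo7 (59), Mdc1, a DNA damage response protein (57), Adamtsl3 (57) and Ptpn14 (54). Rescue-only peaks present in all 4 Erg-deleted libraries and in no WT library numbered 198 (1.20% of 16483), 52 of them detectable. Rescue-only peaks in all 3 Rescue libraries, which carried the knock-in, and in no other numbered 123 (0.746%), 4 of them detectable.

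Promoters of the B-cell programme were among the sites missing from Rescue pre-proB. Of 21938 coding genes, 13877 had a peak within 1000 bp of a TSS in WT and 14149 in Rescue. Of those open in WT, 106 (0.764%) were not open in Rescue, and of those open in Rescue, 378 (2.67%) were not open in WT. Cutting the lists to equal length gave 196 and 228. A list of 18 genes of the Erg-dependent B-cell network was picked for this comparison, with earlier results of these data known. All were among genes that the study named as altered in RNA in Erg KO pre-proB cells. The study's own network was larger and joined such genes bound by Erg, Ebf1 or Pax5. The list had 18 open promoters in WT, 14 in Rescue and 13 in Erg KO pre-proB, and 18 in each of the 4 proB and preB libraries. The 4 genes missing from Rescue were Vpreb1, Vpreb2, Pax5 and Pou2af1.

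The surrogate light chain gene Vpreb1 had a promoter pileup of 43 in WT pre-proB and no peak in Rescue or Erg KO pre-proB, while WT proB and preB had 300 and 95 and Rescue proB and preB had 112 and 81. Its near-identical copy Vpreb2 had 21, no peak, no peak, and then 197, 31, 41 and 24 in the same order, and reads cannot be placed with certainty between the copies. Both were therefore high in WT proB and low or absent in the pre-proB libraries. Pou2af1, a coactivator of octamer-binding factors in B cells, had 37 in WT pre-proB, none in the 2 others, and 496, 556, 341 and 541. Pax5, the B-cell commitment factor, had a weak peak of 18 at chr4:44710695-44710955 and none in the 2 other pre-proB libraries. At that site the later libraries had 116, 109, 75 and 110. Their highest Pax5 promoter peak, of 151, 183, 133 and 221, was a different one (chr4:44708943-44709570 in WT proB). The Pax5 and Vpreb2 peaks were below the pileup of 23 that made a WT peak detectable, and those of Vpreb1 and Pou2af1 above it. In both Rescue proB and Rescue preB all 4 promoters were open. When the Rescue library was taken by source name, all 18 network promoters were open in it, so the absence of these 4 rests on the titles.

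**Figure D3:**
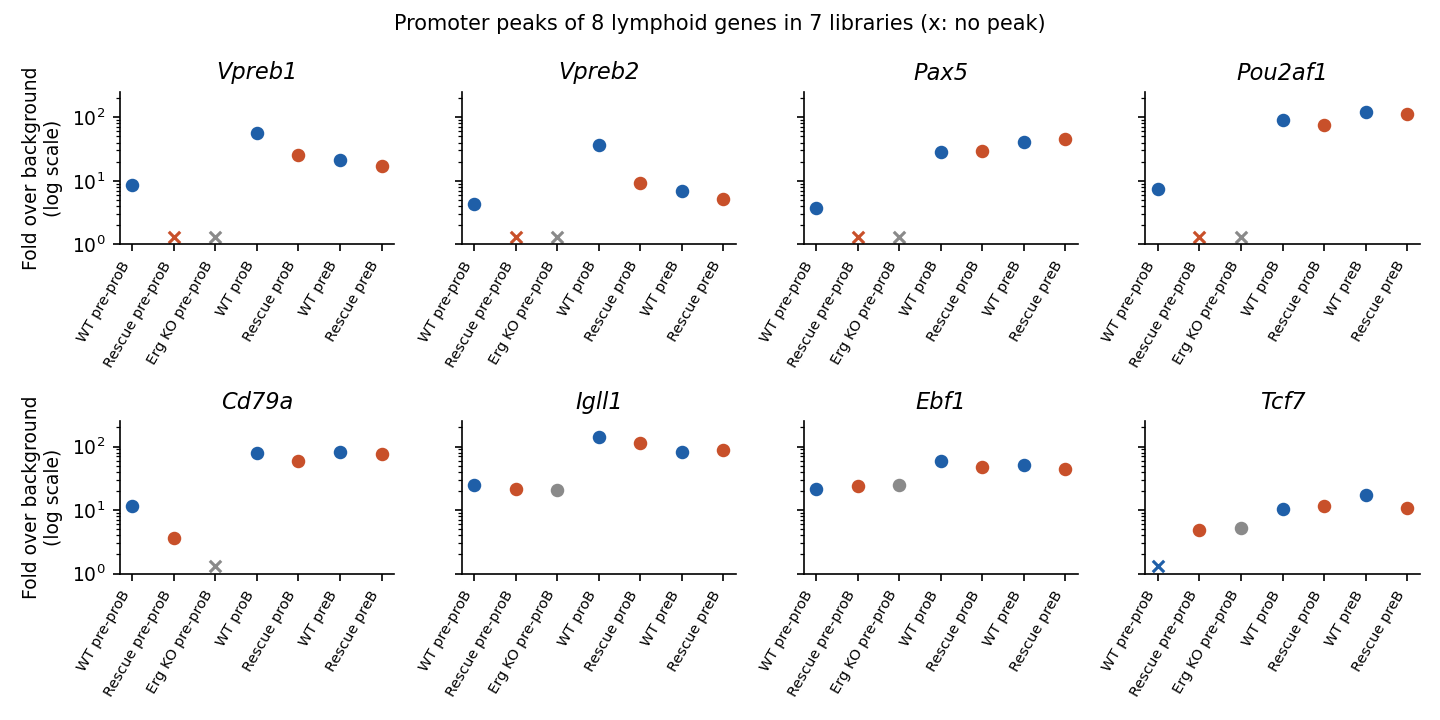
Fold over background (log axis) of the highest promoter peak of 8 genes in each of the 7 libraries, with a cross for no peak. Vpreb1, Vpreb2, Pax5 and Pou2af1 had a peak in WT and a cross in Rescue and Erg KO pre-proB, Cd79a had a fold of 11.4 in WT and 3.57 in Rescue, and Ebf1 and Igll1 had a fold of at least 20.9 in all 7 libraries.

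Other parts of the pre-B-cell receptor differed from one another. The promoter of Cd79a was shared but lower, with a pileup of 58 in WT, 19 in Rescue, no peak in Erg KO, and 433, 370, 264 and 365 in the later libraries. Its log2 ratio of Rescue over WT fold, centred on the median of all shared pairs, was −1.83 (95% interval from the pileups −2.71 to −1.11). The promoter of Igll1, the other surrogate light chain gene, was high in every library, with 128 in WT, 120 in Rescue and 113 in Erg KO pre-proB. Cd79b had 42, 43 and 35. The recombinase genes Rag1 (165 in WT, 202 in Rescue and 177 in Erg KO) and Rag2 (48, 54 and 40) were open in all 3, as was Ebf1 (110, 131 and 132). Of 12 genes of pre-B-cell receptor signalling, 11 promoters were open in each of WT and Rescue. The 12 B-cell regulators, the 10 cytokine receptors and the 12 ETS-family genes were all open in both, as were 9 of 10 genes of V(D)J joining, the 7 genes of sort markers and both housekeeping genes. Within the V(D)J list the promoter of Dntt, the terminal transferase that adds bases at the joins, was lower, with a pileup of 128 (fold 25) in WT, 52 (fold 9.47) in Rescue and 49 (fold 9.16) in Erg KO pre-proB. It had 17 in WT proB, 19 in Rescue proB and no peak in preB cells, unlike Cd79a, which was highest at the later stages.

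Distal peaks at the same genes also differed. Peaks assigned to Ebf1 numbered 36 in WT, 8 of them (22.2%) WT-only, and 32 in Rescue, 3 of them (9.38%) Rescue-only. The 3 highest WT-only peaks were close together in intron 10 of Ebf1, at chr11:44945818-44946116, chr11:44949177-44949450 and chr11:44950312-44950708, with pileups of 29, 33 and 44. All 3 were absent from Erg KO pre-proB and present in the 4 proB and preB libraries. Lmo2, a bridging factor of stem and progenitor cells, had 6 WT-only of 22 peaks, all upstream of the gene, all weak (pileups of 16 to 28), and all again absent from Erg KO and present in the 4 later libraries. Over the 18 network genes together, 30 of 233 WT peaks (12.9%) were WT-only, beside 5.88% of all, and 27 of 231 Rescue peaks (11.7%) Rescue-only, beside 15.6%. For plasmacytoid dendritic cell genes the shares were 13.7% and 14.1%, and for T-cell genes 4.05% and 20.7%. Runx2 alone held 22 of the 34 WT-only and 15 of the 36 Rescue-only peaks of the dendritic list. Over the 14 lists they ranged from 1.68 to 13.7% for WT-only and from 8.74 to 25% for Rescue-only peaks, the last being 3 of 12 peaks at 2 housekeeping genes.

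The Erg locus itself had 34 peaks in WT, 5 of them WT-only, and 37 in Rescue, 9 of them Rescue-only. Both of the higher WT-only peaks lay in intron 3, with pileups of 52 (chr16:95427491-95428114) and 63 (chr16:95428191-95428736), and the second is the sequence shown above with 2 E-boxes. Neither had a peak in Erg KO pre-proB, and both had one in Rescue proB and preB, whose Erg alleles were also deleted, as well as in WT proB and preB. The promoter peak inside the gene (chr16:95459148-95459811) had a pileup of 63 in WT and 29 in Rescue pre-proB and 19 in Erg KO. The proB and preB libraries reached 242 and 139 in WT, then 150 and 191 in Rescue, and the centred log2 ratio at the pre-proB stage was −1.37 (−2.08 to −0.74). The upstream promoter (chr16:95585144-95585949) had 48 in WT and 53 in Rescue. The deposited peaks thus did not separate the Erg-deleted from the WT libraries at these sites, since the Rescue proB and preB libraries were open there.

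Genes of other lineages were looked up because the sort gate could hold other cells. T-cell promoters with a peak numbered 5 of 10 in WT and 7 in Rescue and Erg KO. The additional ones were Tcf7, a T-lineage factor also used in other lymphoid cells, with 26 in Rescue, 27 in Erg KO and none in WT pre-proB but 51 to 77 in the proB and preB libraries, and Bcl11b, a T-lineage commitment factor, with 17 in Rescue, 19 in Erg KO and 39 in WT proB and no other peak. The T-cell genes Cd3e, Cd3d and Zap70 had no peak within 1000 bp of a TSS in any library. With promoters of 2500 bp the T-cell counts were 6 in WT and 8 in Rescue. Not all of these genes therefore lacked a peak in the wider window. With lists of equal length the T-cell counts were 5 in WT and 6 in Rescue. The promoter of Cd3g, a subunit of the T-cell receptor complex, had 53 in WT, 83 in Rescue and 70 in Erg KO pre-proB. Later on it had only 15, in Rescue proB. Cd8a, a T-cell coreceptor, had 98, 168 and 111, with a centred log2 ratio of Rescue over WT of 0.50 (0.14 to 0.88) and 4 Rescue-only peaks. Lck, a T-cell receptor kinase, had 62 and 79 in WT and Rescue (0.07, −0.42 to 0.58) and Thy1, a T-cell surface protein, 114 and 102 (−0.43, −0.83 to −0.04). The folds summed over T-cell promoters were 116 in WT and 147 in Rescue pre-proB. Gata3, an early T-cell and innate lymphoid factor, had no WT-only peak and 8 Rescue-only of 25, 6 of them in Erg KO, at pileups of 17 to 29. Only the peak of 29 reached the pileup of 27 that made a Rescue peak detectable. A peak of 18 lay in intron 2, and all others were intergenic, 67587 to 1239112 bp from the TSS. They were assigned to Gata3 only as the nearest coding TSS. Myeloid promoters numbered 5 of 10 in WT and 6 in Rescue, the additional one being Mpo, the neutrophil peroxidase, at 18 in Rescue alone. With lists of equal length the order turned, with 5 in WT and 4 in Rescue. Natural killer and innate lymphoid (7 of 10), plasmacytoid dendritic (10 of 10), stem and progenitor (9 of 10) and erythroid (5 of 9) promoters had equal counts. Equal counts did not mean equal heights. Of 8 dendritic promoter pairs, 2 had a log2 interval above 0 and 0 had one below, with a median of 0.004. These were Ly6d (52 in WT and 100 in Rescue, 0.66, 0.17 to 1.18) and Runx2 (86 and 140, 0.42, 0.03 to 0.83). Over all 189 shared pairs of the dendritic list, promoters or not, the median leaned the other way, at −0.116. Of these pairs 11.6% were higher in WT and 2.65% higher in Rescue by 0.5 on the log2 scale. Over all shared pairs these shares were 5.28% and 4.94%. The part of other cells in the differences above was not tested.

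Among the 106 promoters open in WT only, 83 were open in WT proB, 76 in Rescue proB but 44 in Erg KO pre-proB. Of the 378 open in Rescue only, 221 were open in WT proB, 214 in Rescue proB and 225 in Erg KO. The highest WT-only promoters by −log10 q were those of Tac4, Bsnd, Tnnc1, Bglap3, Tfec, Cfi, Sorbs2, Tmem171, Gm49393 and Apobec4. The highest Rescue-only ones were Smug1, Gng3, Fcamr, Saa1, Creb3l4, Gm49369, Gm30191, Abcg8, Eno3 and S100a14. At Tac4, Tnnc1, Bglap3, Tfec, Tmem171 and Gm49393 and at all 10 Rescue genes the peak itself overlapped a peak of the other list that lay outside the promoter window, so these counted by the window edge. Promoters whose peak was itself unshared numbered 95 and 358. On that basis, added after the data were seen, Vpreb1 and Pou2af1 were among the 10 highest WT-only promoters, with Bsnd, the chloride channel subunit barttin, and Cfi, a complement inhibitor. The 10 highest Rescue-only ones were Srp54b, Galnt9, Lbp, Kctd19, Lrrc36, Mlana and the olfactory receptor genes Olfr556, Olfr1258, Olfr524 and Olfr523.

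Unshared peaks were spread over many genes. At least 1 WT-only peak was assigned to 3864 of 16998 genes with a WT peak, and at least 1 Rescue-only peak to 8190 of 17352 genes with a Rescue peak. Runx2, a RUNX-family factor, had the most WT-only peaks, 22 of 85 (25.9%), and also 15 Rescue-only of 79. Mbnl1, a splicing factor, had 16 of 67 and 10 of 62. Next in the WT direction were Prl2c3 with 11, Mef2c, a transcription factor of early lymphoid cells, with 9, and 8 genes tied at 8 each, which were Zfp978, Zfp981, Zfp988, Ebf1, Cd47, Runx1, Bcl11a and Zmiz1. In the Rescue direction they were Prl2c3 (23), Auts2 (22), Adgrl2 (21), Zfp988 (18), Bcl11a, a factor required in early lymphoid progenitors (18), Klf6 (16), Runx2, Zmiz1 and Tbl1xr1 (15 each), and then Fhit, Cd47, Arid1b and Zfhx3 tied at 14. Prl2c3, Zfp978, Zfp981 and Zfp988 have near-identical copies. With ties included, Runx2, Prl2c3, Zfp988, Bcl11a, Zmiz1 and Cd47 stood in both directions. Only 1 of the first 10 names, ties broken by the smaller number of peaks, in each direction stayed among the first 10 when noncoding genes also took peaks.

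Shared peaks were compared by the fold of each. Over 84748 pairs in which 1 WT peak met 1 Rescue peak, the log2 ratio of Rescue over WT fold had a median of 0.16 and an SD of 0.31, and ratios below are relative to that median. Among 57581 pairs with a pileup of at least 40 in the higher library, 271 (0.471%) were higher in WT and 160 (0.278%) higher in Rescue by 1 or more on the log2 scale. Without centring the balance turned, with 183 higher in WT and 379 higher in Rescue. The WT-higher pairs had a median fold of 10.9 in WT, 4.83 in Rescue and 5.31 in Erg KO pre-proB, 59.1 in WT proB and 33.5 in Rescue proB. The Rescue-higher pairs had 4.26, 10.4 and 8.06 in the 3 pre-proB libraries, and 29.4% of them had a WT proB peak.

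The largest WT-higher ratio was at a peak nearest to Bnc1, a zinc-finger factor, with 97 fragments in WT and 16 in Rescue (log2 −2.80, −3.74 to −2.10). It was followed by peaks nearest to Adamts7, a metalloprotease (73 and 15), Smco4 (86 and 18), Fmo9 (88 and 23), Gm5426 (76 and 20), Uhrf1, a cofactor of DNA methylation maintenance (83 and 22), Dcaf7 (84 and 23), Gcm1 (71 and 20), Efna5 (80 and 23) and Ctla2b (62 and 18). All 10 had a higher fold in WT proB than in WT pre-proB. The largest Rescue-higher ratio was nearest to Itprid2, with 32 in WT and 186 in Rescue (log2 2.23). It was followed by peaks nearest to Lrrc4 (34 and 193), Gm47283 on the Y chromosome (35 and 174), 1700029I15Rik (24 and 112), Foxn3 (17 and 64), Rap1a (27 and 100), Camk2b (17 and 62), Ykt6 (19 and 68), Dpp6 (18 and 63) and Ntm (29 and 99).

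**Figure D4:**
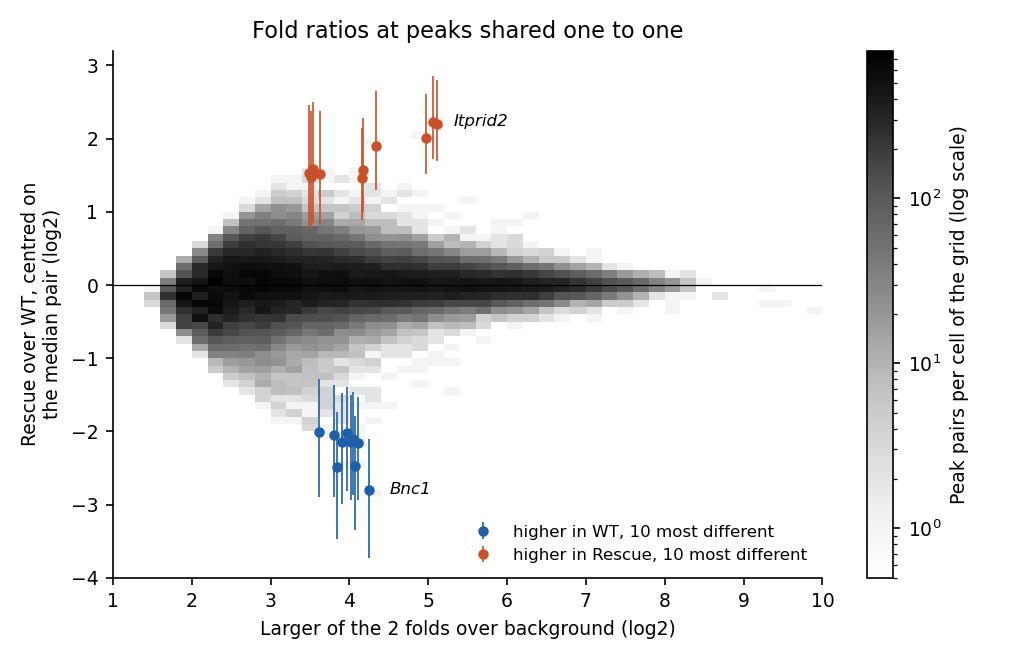
Centred log2 ratio of Rescue over WT fold (y axis) against the larger of both folds (log2, x axis) for all 84748 shared pairs, shaded by the number of pairs per cell, with the 10 pairs furthest in each direction as points with 95% intervals from their pileups. The point furthest down is Bnc1 at −2.80 and the furthest up Itprid2 at 2.23, while most pairs lie near 0.

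The bases around the summits were searched on both strands for 13 short patterns bound by families of factors, each a description of letters and not of binding. They were the EBF palindrome given above and, as a control, the same letters in reverse (AGGG and CCCT spaced by 2 bases). The pattern for ETS factors was ACAGGAAG or ACCGGAAG and that for the ETS factor PU.1 was GAGGAAGT. The RUNX pattern was TGTGGTT, and the E-box is spelled out above. TCF/LEF factors were represented by CTTTGAT, whereas FOXO factors were represented by TGTTTAC. The zinc-finger GATA factors had AGATAA as their pattern, and interferon regulatory factors (IRF) had GAAANNGAA. For AP-1 the search used TGANTCA, for T-box factors AGGTGTGA, and for the octamer (OCT) ATGCAAAT. The ETS and PU.1 patterns can overlap in their common letters. The EBF palindrome was in 3.52% of WT-only peaks (3.07 to 4.04%) and in 7.52% of the detectable ones (108 of 1436), against 0.470% of shared WT peaks, 0.461% of shared WT peaks of similar height, 0.249% of Rescue-only peaks and 0.513% of all peaks of both lists. The reversed control was in 0.569% of WT-only, 0.525% of shared WT, 0.455% of Rescue-only and 0.526% of all peaks.

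The 198 WT-only peaks with the EBF palindrome were nearly all proB sites. Of these, 194 (98.0%) had a peak in WT proB, 177 (89.4%) in Rescue proB, yet only 10 (5.05%) had one in Erg KO pre-proB. Among WT-only peaks present in WT proB the palindrome was in 5.35% (194 of 3623), and among those absent from WT proB in 0.200% (4 of 1998). The highest was nearest to Wdfy3, with a pileup of 68 in WT pre-proB. The Tmem64 peak had 62 in WT pre-proB, no peak in Rescue or Erg KO pre-proB, and pileups of 658 and 522 in WT proB and preB and of 430 and 629 in Rescue proB and preB. That of Bean1 had 58, then 718, 460, 377 and 508, and that of Plcl1 had 55, then 600, 276, 268 and 270. These sites were therefore low in WT pre-proB, without a peak in Rescue pre-proB, and high in all 4 libraries of later stages.

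The palindrome also followed the fold ratio of shared pairs. It was in 5.54% of the pairs higher in WT by 1 or more on the log2 scale (15 of 271), in 1.26% of those higher by 0.5 to 1, in 0.415% of those within 0.5, in 1 of 2763 higher in Rescue by 0.5 to 1, and in 1 of 160 higher by 1 or more. The Adamts7 pair was one of the 15. These pairs were not used in the search of the unshared peaks, although they came from the same 2 libraries.

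**Figure D5:**
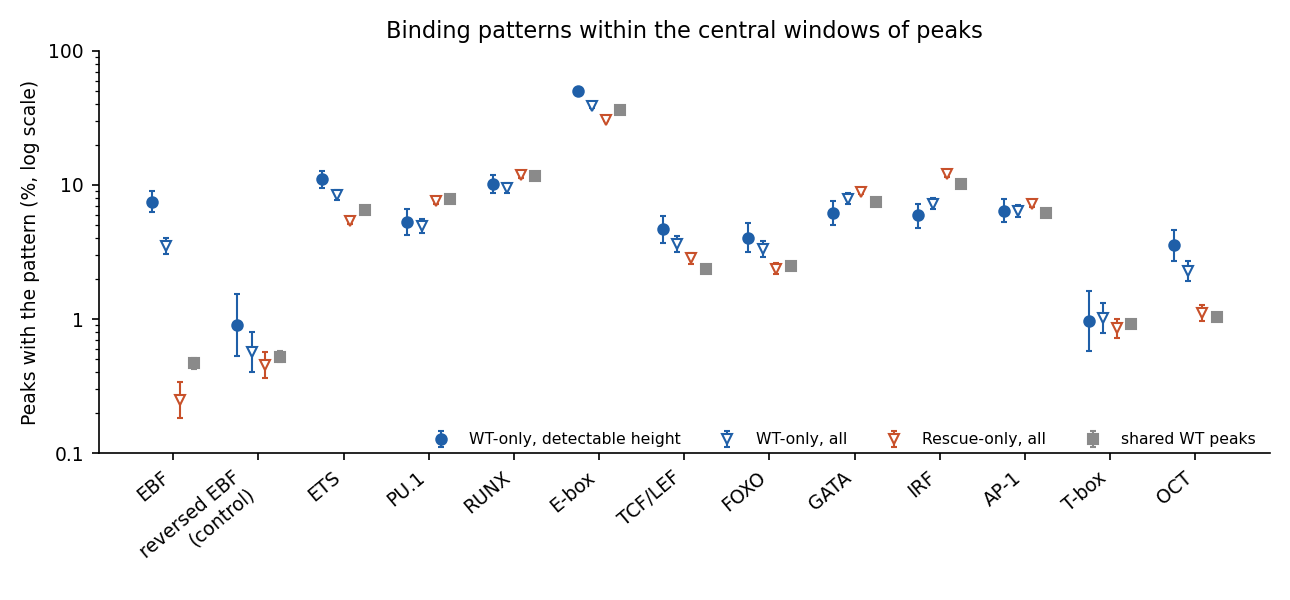
Share of peaks (percent, log axis) with each of 13 short patterns in the 200 bp around the summit, for detectable WT-only, all WT-only, all Rescue-only and shared WT peaks, with 95% Wilson intervals. The EBF palindrome marked 3.52% of WT-only and 0.470% of shared WT peaks, while its reversed control was in 0.569% and 0.525%.

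Other patterns differed less. E-boxes were in 38.9% of WT-only peaks, 50.1% of the detectable ones and 36.3% of shared WT peaks, and in 30.5% of Rescue-only peaks (35.9% of all peaks). With lists of equal length the E-box difference between WT-only and shared peaks was 0.276 percentage points. The octamer, to which the partners of Pou2af1 bind, was in 2.29% of WT-only, 1.04% of shared WT and 1.11% of Rescue-only peaks (1.07% of all). The ETS pattern was in 8.38%, 6.49% and 5.42% (6.49% of all), and IRF in 7.24%, 10.1% and 12% (10.2% of all). PU.1 was in 4.95% of WT-only against 7.79% of shared WT peaks (7.77% of all). In Rescue-only peaks PU.1 was in 7.64% and in shared Rescue peaks in 7.95%, a difference that turned to 1.56 points higher against shared peaks of similar height. RUNX was in 9.50%, 11.6% and 11.8% (11.6% of all), TCF/LEF in 3.63%, 2.34% and 2.83% (2.39%) and FOXO in 3.33%, 2.48% and 2.38% (2.50%). GATA was in 7.92%, 7.42% and 8.92% (7.56%), AP-1 in 6.37%, 6.20% and 7.17% (6.28%), and T-box in 1.01%, 0.915% and 0.855% (0.909%), and the GATA and AP-1 differences for WT-only peaks turned sign against shared peaks of similar height.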

How the data were processed

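Chromatin accessibility was profiled by ATAC-seq in 7 mouse bone marrow libraries, and the WT and Rescue pre-proB lists were compared. Per the labels, the submitters' processing notes name CASAVA 1.8.2, Bowtie2, Picard, MACS2 and mm10, and for the other versions, and for duplicate and multi-mapped reads, nothing was given in the sources used here. The deposited lists give for each peak a score, a fold ratio over background, and −log10 p and q values computed by the authors with MACS2 for each library. Read totals were not given. Summit pileups were recovered from the even spacing of the deposited folds, with MACS2 adding 1 to pileup and background, came out whole in 100% of peaks within 0.02, and fell to a lowest value of 12 in both pre-proB libraries. Backgrounds were 4.16 (WT) and 4.60 (Rescue) fragments.

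Overlaps, nearest TSS, promoters (1000 bp either side) and patterns in 200 bp around the summit were computed on the GRCm38 genome and its annotation. The nearest TSS was taken from 22432 coding genes and receptor segments, and promoters were counted over 21938 coding genes. The software was Python 3.11.15, pandas 2.3.3, numpy 2.4.6, scipy 1.17.1 and pysam 0.24.0, and the code was tested on simulated lists. Intervals were 95%, Wilson for shares and exact binomial on both pileups for fold ratios. Ratios of folds were centred on the median pair. With 1 library a group no p-value was computed. The values of a gene of the receptor signalling list are not reported here. Genes named were, in each direction, the 10 unshared peaks, promoters and shared ratios ranking highest, the 10 genes with most unshared peaks, list genes open in 1 library, and Erg, Ebf1 and Pax5. Members and the 14 gene lists were chosen with earlier results of these data known, and detectable height, unshared promoter peaks, EBF-bearing peaks, proB sites, peaks following genotype, Rescue-only peaks away from the T-cell receptor and Y regions, and distal peaks of Lmo2 and Gata3 were chosen after the data were seen. Alternatives were lists of equal or shortest length, a −log10 q of 10, a reciprocal overlap of 50%, Rescue by source name, autosomes, promoters of 2500 bp, all annotated genes, no centring, summits within 100 bp, windows of 400 bp and shared peaks of similar height.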

Additional observations from a re-analysis of the deposited data

How the results depend on the processing

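Each group was 1 library, so neither direction nor size could be set against a spread between mice, and read depth was not given. No paired analysis was possible because the labels give no replicate numbers and each group had 1 library. Of the results that answer a comparison, 20 alternative values stayed and 38 moved, and of single genes and patterns 122 stayed, 83 moved and 9 changed sign. Shares and pattern differences stayed when within their counting interval, and counts when within 1.5 times. A share could thus count as moved after a small change, as from 15.6 to 13.5% for unshared Rescue peaks. Where a value moved, the cause was not tested beyond what the setting itself changes.

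Unshared WT peaks were 9.01% with lists of equal length, 4.71% at a −log10 q of at least 10, 11% with a reciprocal overlap of 50%, 35.6% with the Rescue library by source name and 1.87% at detectable height. Unshared Rescue peaks were 10.3%, 13.5%, 19.4%, 27.3% and 2.32% in the same order, so the source-name setting was the only one of these in which the WT share exceeded the Rescue share. WT-only peaks in Erg KO pre-proB were 34.1% with all lists cut to the shortest, 67.0% with both lists cut at a −log10 q of 10, 34.5% with reciprocal overlap and 20.1% at detectable height. The cut at 10 also counted as unshared those peaks whose overlapping peak fell below it. WT-only peaks in WT proB were 61.7%, 75.1%, 23.9% and 88.6%, and with reciprocal overlap the share in Erg KO was thus above that in WT proB. Rescue-only peaks in Erg KO pre-proB were 52.1%, 93.5%, 49.8% and 84.9%, and in WT proB 27.7%, 38.3%, 18.8% and 24.4%. Promoters open in WT only numbered 196 with lists of equal length, 533 by source name and 273 with all annotated genes. Promoters open in Rescue only numbered 228 with equal lists and 923 with all annotated genes. Of the 10 genes with most unshared peaks, 1 in the WT and 1 in the Rescue direction remained with all annotated genes, and 6 in the Rescue direction with lists of equal length. Without centring 379 pairs were higher in Rescue and 183 in WT, the opposite balance. The EBF difference between WT-only and shared peaks was 3.87 percentage points in 400 bp windows and 2.12 with lists of equal length, and that of Rescue-only peaks was −0.305 against shared peaks of similar height.

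The changes of sign were all in differences of patterns. For WT-only peaks they were −0.00644 points for the reversed control with lists of equal length, and −0.715 for GATA and −0.137 for AP-1 against shared peaks of similar height. For Rescue-only peaks they were 0.0512 for the reversed control in 400 bp windows, 0.101 for PU.1 and 0.137 for FOXO with lists of equal length, and 1.56 for PU.1, −0.339 for GATA and −0.0626 for the octamer against shared peaks of similar height.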
